A study of Mus musculus with 11 samples.

Results

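The comparison asked how dorsal root ganglia (L4 and L5) of 2-month-old mice differed 5 days after a crush of the sciatic nerve from those of uninjured animals. It used 6 of the 11 labelled arrays of the study. The 3 crush arrays, which the labels call Young Pre-conditioned, and the 3 naive arrays, called Young Naïve and taken at day 0, were chosen by their labels alone. Both groups came from C57/BL6 mice, for which no genetic change is stated. The days are read from the series' design text, whose wording of them is ambiguous. The other 5 arrays, from 24-month-old mice (3 after crush and 2 naive), served to estimate the spread and to test whether the response differed. Total RNA was converted to biotin-labelled cRNA and hybridised to Illumina bead arrays, which give 1 brightness per probe. The labels do not say whether an array is 1 animal or a pool, or whether the naive animals had a sham operation, so the spread behind the p-values is that between these arrays and may be technical. Arrays are called crush 1 to 3 and naive 1 to 3 after the numbers in their titles.

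Dorsal root ganglia hold the cell bodies of the sensory neurons whose axons run in the sciatic nerve, wrapped by satellite glia and accompanied by Schwann cells, macrophages, fibroblasts and vessels. When the peripheral axon is cut or crushed, the cell body receives injury signals from the axon and the neuron switches from a transmitting to a growing state. A peripheral lesion given beforehand lets sensory neurons extend axons faster after a later lesion, which is why such a crush is called pre-conditioning. Macrophages are known to gather around the injured cell bodies, recruited in part by chemokines and by colony stimulating factor 1 from the neurons.

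Levels are log2 intensities after background correction and quantile normalization, so a difference of 1 is a doubling. Changes are crush minus naive, from 3 crush and 3 naive arrays. Their standard errors come from the limma fit, whose spread was estimated over all 11 arrays. A gene is said to have risen or fallen where limma gave a Benjamini-Hochberg adjusted p under 0.05 over the 11529 genes tested. In bulk tissue, fewer cells of a type and less RNA per cell cannot be told apart, and a lower share of neuronal RNA would lower neuronal genes together.

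Before normalization the median probe intensity was 203, 252 and 296 on crush 1 to 3, against 206, 206 and 187 on naive 1 to 3. The first principal component of the young arrays held 71.2% of the variance and separated crush from naive. Crush 3 stood apart from crush 1 and 2 on the second component, at -16.2 against 7.45 and 9.21. It also carried skeletal muscle transcripts: Myl1, a myosin light chain gene, measured 6.96, 6.70 and 10.59 on the crush arrays and 6.73, 7.11 and 7.27 on the naive arrays. The mean shift of 10 muscle markers from naive was 0.44, 0.22 and 2.01 on crush 1 to 3, against -0.12, 0.05 and 0.08 on naive 1 to 3. These markers include Car3, which raised the mean on all 3 crush arrays. It measured 10.60, 10.35 and 10.58 there and 6.80, 6.46 and 6.81 on the naive arrays. They also include Pvalb, a marker of large neurons too, which fell. Neurons of the ganglion were plainly present on every array, since Avil, Uchl1 and Sncg, abundant in sensory neurons, were bright on all of them. These 3 lay above the 99th percentile of genes in naive ganglia and changed by -0.06, 0.01 and -0.01. Changes may be compressed so near the top of the scale, so these values do not show that neuronal RNA kept its share. Of 10 markers of sensory ganglia 5 fell (Scn10a, Tac1, Pou4f1, Isl1 and Nefh) and 0 rose (5 lower and 0 higher at an unadjusted p under 0.05). Under median scaling 2 fell. Counts below that move by more than 1.5 times without crush 3 or any other single array are given with that array.

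Crush moved 2088 genes past the test, 18.1% of those tested. Of these, 1001 rose (8.68%) and 1087 fell (9.43%). These 2 shares are the background for the list counts below. The share of increases was 47.9%, against 54.0% under cyclic loess and 64.6% under median scaling, so the balance of increases and decreases depended on the scaling. Changes of at least 2-fold were more lopsided: 222 genes rose (1.93%) and 79 fell (0.685%), 301 together (2.61%). At least 4-fold changes were 47 increases and 0 decreases. The largest increase was 50.1-fold and the largest decrease 3.26-fold, or 33.1-fold and 2.80-fold without background correction.

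The genes with the greatest increases started low. The 17 genes that rose at least 8-fold lay at a median 12.6th percentile of level in naive ganglia, and 15 of them lay below the middle of all genes. The 79 genes that fell at least 2-fold started at a median 71.4th percentile, with 6 below the middle. A gene dim in naive ganglia could pass the intensity filter through its crush arrays alone, while genes dim on all arrays were not tested. Genes near the low end also had little room to fall. The link of change to starting level is thus in part built in by the filter and the scale. Since no detection p-values accompany the intensities, the distance of the low naive values from background is unknown, and folds set against such values depend on the background correction. In the plot of change against naive level the large increases lie at the left and the decreases on the right.

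**Figure D1:**
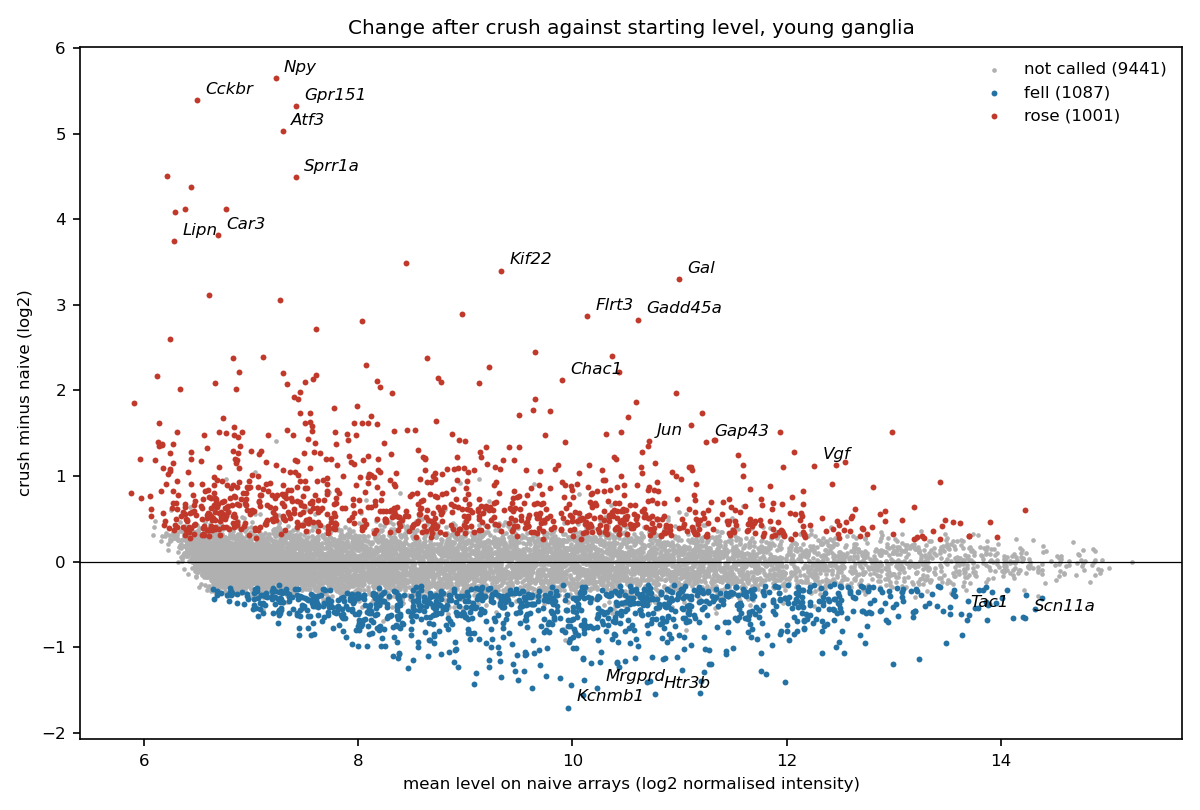
Change after crush (crush minus naive, log2, vertical axis) against the mean log2 intensity in naive ganglia (horizontal axis) for the 11529 genes tested in 2-month-old mice, with genes that rose and fell marked. The greatest increases belong to genes of low naive level, and decreases reach 3.26-fold at most.

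Among the injury transcription factors, Atf3, a stress-induced factor that marks axotomised neurons, had the clearest change. Atf3 (chr1:191170296-191183333 on GRCm38.p6) measured 12.26, 12.38 and 12.33 on the crush arrays and 7.40, 7.31 and 7.16 on the naive arrays. The groups were far apart and the arrays of each lay close together. It rose by 5.03 ± 0.12 (adjusted p = 4.99e-11). Jun, its partner in AP-1 complexes, measured 12.34, 11.92 and 12.11 on the crush arrays and 10.77, 10.62 and 10.75 on the naive arrays, a rise of 1.41 ± 0.13 (adjusted p = 1.1e-05). Nfil3, a basic leucine zipper repressor, measured 10.86, 10.83 and 11.01 on the crush arrays against 8.68, 8.76 and 8.81 on the naive arrays and rose by 2.15 ± 0.10. For all 3 genes every crush array lay above every naive array, as it did in one direction or the other for 38.4% of all genes tested.

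Of the 23 injury factors tested, 8 rose and 0 fell (12 higher and 0 lower at an unadjusted p under 0.05), with a median change of 0.26 against -0.02 over all genes. The others that rose were Klf6 (1.25, a zinc finger factor), Smad1 (1.04, which carries bone morphogenetic protein signals), Crem (0.82) and Cebpb (0.78). Further probes that passed the filter gave 0.89 (not called) for Klf6, 0.88 (called) and 0.14 (not called) for Smad1, and 0.99 (called) and 0.44 (not called) for Crem. Stat3, which carries gp130 cytokine signals to the nucleus, changed by 0.18 ± 0.12 (adjusted p = 0.36), Egr1 by 0.09 and Myc by 0.04, and none of these 3 passed.

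Several factors that specify sensory neuron types fell. Of 13 identity factors tested, 6 fell and 0 rose (7 lower and 0 higher at an unadjusted p under 0.05), with a median of -0.41. Etv1, a factor of proprioceptive neurons, averaged 8.92 ± 0.08 on the crush arrays and 9.74 ± 0.13 on the naive arrays (SD, n = 3 each), a change of -0.82 ± 0.10 (adjusted p = 7.51e-05). Runx1, which sets up nociceptor types, measured 9.27, 9.10 and 9.29 on the crush arrays and 9.65, 9.73 and 10.09 on the naive arrays (-0.60 ± 0.14). Pou4f1 and Isl1, which act across all sensory neurons, fell by 0.48 and 0.41, and Ldb2, a cofactor of LIM factors such as Isl1, by 0.85. The groups did not overlap for any of these 5 genes, as for 2078 of the 2088 genes called and 38.4% of all genes tested. Pou4f1 and Isl1 lost their calls under median scaling, with changes of -0.39 and -0.38 there. Maf, a factor of mechanoreceptors (-0.45), lost its call without crush 1, crush 2, naive 1, naive 2 or naive 3 (-0.52 to -0.41 over the fits without 1 array).

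Promoter letters of the strongly induced genes are shown here because Atf3 and Jun bind AP-1 and CRE sites. The RefSeq promoter table (GRCm38.p6) covers 250 bases before to 50 after each gene start. The AP-1 motif TGANTCA, sought on both strands, stood in 15.4% of the windows of genes that rose at least 4-fold (6 of 39) and in 10.7% of those that rose at least 2-fold (23 of 215). It stood in 5.86% of the windows of all genes tested (701 of 11962) and 7.81% of all windows in the table. Windows of genes that fell at least 2-fold held it in 6.10% of cases (5 of 82; a gene can have more than 1 window). The CRE motif TGACGTCA, also on both strands, stood in 2.56% of windows of genes that rose at least 4-fold (1 of 39) and in 2.70% of those of all genes tested. No stretch of letters matches both motifs. A match is a description and not a site of binding. The 4 genes named here that rose at least 4-fold and have a motif among the 250 bases before their start are given below, with the motif in capitals.
Sprr1a (chr3:92485882-92486131, minus strand, AP-1 motifs starting 146 and 116 bases before the start): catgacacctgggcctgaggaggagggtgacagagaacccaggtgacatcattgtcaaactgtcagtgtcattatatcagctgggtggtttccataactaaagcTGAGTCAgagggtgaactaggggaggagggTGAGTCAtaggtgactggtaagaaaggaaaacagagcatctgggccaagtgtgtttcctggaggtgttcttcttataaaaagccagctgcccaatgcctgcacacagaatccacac
Lipn (chr19:34067108-34067357, plus strand, AP-1 motif starting 148 bases before the start): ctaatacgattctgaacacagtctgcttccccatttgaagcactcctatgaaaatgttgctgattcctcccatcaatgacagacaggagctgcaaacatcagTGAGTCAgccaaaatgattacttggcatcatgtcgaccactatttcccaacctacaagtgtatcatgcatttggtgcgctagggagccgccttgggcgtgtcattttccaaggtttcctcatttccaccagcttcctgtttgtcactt
Nts (chr10:102490419-102490668, minus strand, AP-1 motif starting 207 bases before the start): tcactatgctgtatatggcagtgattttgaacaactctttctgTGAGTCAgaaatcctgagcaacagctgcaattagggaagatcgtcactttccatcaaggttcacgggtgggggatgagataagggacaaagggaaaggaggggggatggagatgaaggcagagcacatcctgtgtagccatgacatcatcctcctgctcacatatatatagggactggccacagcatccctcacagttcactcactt
Ucn (chr5:31138896-31139145, minus strand, CRE motif starting 44 bases before the start): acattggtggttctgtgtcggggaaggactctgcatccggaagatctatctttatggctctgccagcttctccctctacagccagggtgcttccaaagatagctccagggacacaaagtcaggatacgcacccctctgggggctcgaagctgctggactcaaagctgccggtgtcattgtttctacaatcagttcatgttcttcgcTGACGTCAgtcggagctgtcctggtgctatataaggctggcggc
Of the 20 greatest increases, 16 had a window in the table and 2, Sprr1a and Lipn, held an AP-1 motif. The other 14, among them Npy, Atf3 and Gal, held neither motif in these windows.

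Many genes of the growing axon rose. Of 43 growth cone and outgrowth genes tested, 19 rose and 0 fell (23 higher and 0 lower at an unadjusted p under 0.05), and 40 of the 43 changes were positive, with a median of 0.34. Sprr1a, a small proline-rich protein that promotes outgrowth when made in neurons, measured 12.17, 11.95 and 11.59 on the crush arrays and 7.61, 7.37 and 7.27 on the naive arrays (4.49 ± 0.21, adjusted p = 1.99e-08). Ecel1, a peptidase needed for axon branching during development, averaged 10.81 ± 0.16 on the crush arrays and 6.43 ± 0.10 on the naive arrays (SD, n = 3 each) and rose by 4.38 ± 0.17. The groups of both genes were separated by a wide gap. The tubulin gene Tubb6 rose by 2.89 ± 0.26, with 12.16, 11.97 and 11.45 on the crush arrays against 9.08, 8.94 and 8.89 on the naive arrays. Flrt3, an adhesion protein with leucine-rich repeats, rose by 2.87 ± 0.10, and Stmn4, a stathmin that binds tubulin, by 2.38 ± 0.17.

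Gap43, the classical growth cone phosphoprotein, started from a high level. It measured 12.92, 12.60 and 12.42 on the crush arrays and 11.02, 11.19 and 11.54 on the naive arrays and rose by 1.40 ± 0.29 (adjusted p = 0.00472). Itga7, a laminin receptor subunit, rose by 1.97, the adhesion molecule gene Chl1 by 1.74 (a second probe gave 0.14 and was not called) and the small heat shock protein gene Hspb1 by 0.83. Adcyap1, which encodes the peptide PACAP, rose by 1.00 and Gfra1, a receptor for GDNF, by 0.80. The tubulin gene Tubb2b changed by 0.13 ± 0.08 and was not called, whereas 2 other probes of it were, at 0.34 and 0.83, and 2 that passed the filter were not, at 0.80 and 0.90. Of 10 neurofilament and axonal genes, Ina rose (0.62, alpha-internexin) and Nefh fell (-0.34, the heavy neurofilament), while Nefm (-0.12) and Prph (-0.12) were not called. Nefh lost its call without crush 1, crush 3, naive 1, naive 2 or naive 3 (-0.38 to -0.29 over the fits without 1 array). The probe of Nefl lay below the intensity filter.

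**Figure D2:**
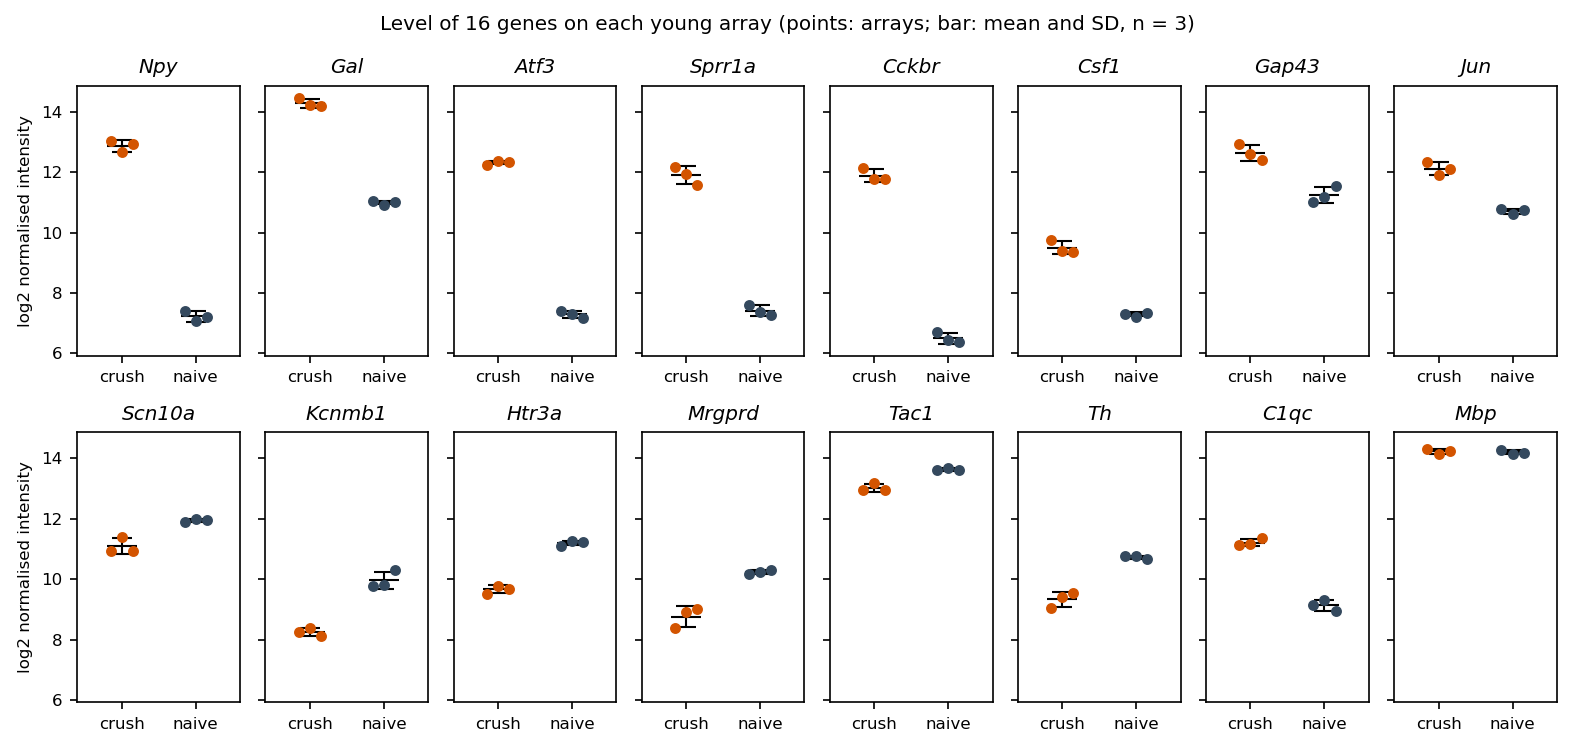
Log2 intensity of 16 genes on each of the 3 crush arrays (left) and the 3 naive arrays (right) of 2-month-old mice; each point is 1 array and the bars are the group mean and SD (n = 3). The increases of Npy, Atf3, Sprr1a and Gal leave a gap of more than 3 log2 units between the groups, and decreases are smaller.

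Neuropeptides moved in both directions. Of 16 tested precursors 7 rose (43.8%, against 8.68% of all genes) and 6 fell (37.5%, against 9.43%). Npy (chr6:49822710-49829507 on GRCm38.p6), which encodes neuropeptide Y, measured 13.04, 12.66 and 12.92 on the crush arrays and 7.42, 7.07 and 7.20 on the naive arrays. Its groups lay furthest apart of all genes tested, and it rose by 5.65 ± 0.18 (adjusted p = 7.4e-10). Gal, encoding galanin, measured 14.45, 14.23 and 14.19 on the crush arrays and 11.03, 10.93 and 11.01 on the naive arrays and rose by 3.30 ± 0.13 (adjusted p = 5.84e-09). Nts, the neurotensin precursor, rose by 2.18 ± 0.36, although a second probe gave 0.22 and was not called. Ucn, encoding urocortin, rose by 2.17 ± 0.15, the gastrin-releasing peptide gene Grp by 1.36 ± 0.14 and Vgf, a precursor of several neuronal peptides, by 1.12 ± 0.12.

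The precursors that fell are made by sensory neurons of the intact ganglion. Tac1, the substance P precursor, measured 12.96, 13.17 and 12.95 on the crush arrays and 13.62, 13.68 and 13.60 on the naive arrays (-0.61 ± 0.10, adjusted p = 0.000987). Sst, encoding somatostatin of itch neurons, measured 8.30, 8.56 and 8.08 on the crush arrays and 9.30, 9.17 and 9.45 on the naive arrays (-0.99 ± 0.18). Nmb, neuromedin B, fell by 1.00 and Scg2, secretogranin 2, by 0.63. The groups of these 4 genes did not overlap, as for 2078 of the 2088 genes called and 38.4% of all genes tested. Calcb, which encodes beta-CGRP, fell by 0.60 but lost its call without crush 1, crush 3, naive 1, naive 2 or naive 3 (-0.78 to -0.40 over the fits without 1 array). Cartpt, the CART peptide precursor, fell by 0.56 and lost its call without crush 1, crush 3, naive 1, naive 2 or naive 3 (-0.65 to -0.48), while a second probe of it was called at -0.74. The median over the precursors was -0.17 and changed sign among the alternatives, from -0.56 to 0.05.

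Receptors for neuropeptides showed 2 of the greatest increases of all. Cckbr, the B-type cholecystokinin receptor, measured 12.13, 11.77 and 11.77 on the crush arrays and 6.69, 6.43 and 6.37 on the naive arrays (5.39 ± 0.17, adjusted p = 7.4e-10). Gpr151, an orphan receptor related to galanin receptors, measured 12.86, 12.62 and 12.73 on the crush arrays and 7.56, 7.26 and 7.43 on the naive arrays (5.32 ± 0.11). Both are among the 20 greatest increases, which were chosen from genes with groups that do not overlap. Cckbr was among the dimmest genes in naive ganglia. Npy1r, a receptor for neuropeptide Y, rose by 0.53 ± 0.10. Of 13 receptors tested 3 rose (23.1%, against 8.68% of all genes) and 4 fell (30.8%, against 9.43%). The falls were those of Ntsr2, a neurotensin receptor (-0.98), the nociceptin receptor Oprl1 (-0.72), and the delta and kappa opioid receptors Oprd1 (-0.35) and Oprk1 (-0.34). Oprd1 lost its call without crush 1, crush 2, naive 2 or naive 3 (-0.40 to -0.29), and Oprk1 without crush 2, crush 3, naive 1, naive 2 or naive 3 (-0.39 to -0.31). The count of receptors that fell was accordingly 2 without crush 2, naive 2 or naive 3.

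Secreted factors and their receptors included the macrophage growth factor gene Csf1. It measured 9.75, 9.39 and 9.35 on the crush arrays and 7.31, 7.22 and 7.35 on the naive arrays and rose by 2.21 ± 0.16 (adjusted p = 1.5e-06). Il34, the other ligand of the same receptor, changed by 0.35 ± 0.14 and was not called (adjusted p = 0.101). Tgfb1 rose by 1.27, Reg3b, a secreted lectin of injured neurons, by 1.27 and Igf1 by 0.71. Nrg1, a growth factor for Schwann cells, fell by 0.66. Fgf13, an intracellular relative of fibroblast growth factors, fell by 0.40 but not without crush 1 or naive 3 (-0.47 to -0.33). Of 2 further Fgf13 probes one was called (-0.39) and the other was not (-0.35). Of 14 such factors 5 rose (35.7%, against 8.68% of all genes) and 2 fell (14.3%, against 9.43%). The number that fell was 1 without crush 1 or naive 3. The brain-derived neurotrophic factor gene Bdnf gave 0.05 on the probe that stood for it and 1.35 on another, which was called (adjusted p = 0.000972), so its probes disagreed.

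Among 22 trophic and cytokine receptors, 7 rose (31.8%, against 8.68% of all genes) and 2 fell (9.1%, near the 9.43% of all genes). Tnfrsf12a, the receptor of TWEAK, rose by 1.62 ± 0.14 with 9.04, 9.26 and 9.06 on the crush arrays against 7.48, 7.42 and 7.61 on the naive arrays. Il13ra1, a subunit of interleukin 13 and interleukin 4 receptors, rose by 1.53 ± 0.16. Next came Acvr1 (0.95), an activin and bone morphogenetic protein receptor, Gfra3 (0.90), the artemin receptor, Gfra1 (0.80), a GDNF receptor, and Il1r1 (0.67), an interleukin 1 receptor. Ntrk3, the receptor of neurotrophin 3, fell by 0.62 on its brightest probe, with 0.06 and -0.28 on others that were not called, and Igf1r fell by 0.50. Ntrk2, the receptor of brain-derived neurotrophic factor (-0.16, though -0.46 and called on a second probe and -0.10, not called, on another), Gfra2 (-0.16) and Ret (0.20) were not called. The inhibitors of JAK-STAT signalling Socs3 (1.09 ± 0.18), Cish (0.76) and Socs2 (0.74) rose, as did Jak2 (0.64). Il6st, encoding gp130 itself, rose by 0.54 but not without crush 2, crush 3, naive 2 or naive 3 (0.44 to 0.63), and Il6ra (0.17) was not called. In that signalling list 5 of 20 rose and 0 fell (6 higher and 0 lower at an unadjusted p under 0.05).

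Ion channel genes fell far more often than they rose. Over the 5 channel and neurotransmitter receptor lists together, 42 of 97 tested genes fell (43.3%, against 9.43% of all genes) and 3 rose, with a median of -0.31. Among these lists the voltage-gated sodium channels were the most uniform, with 7 of 8 falling, 0 rising (7 lower and 0 higher at an unadjusted p under 0.05) and all 8 changes negative. Scn10a, the nociceptor channel Nav1.8, measured 10.95, 11.39 and 10.95 on the crush arrays and 11.89, 11.98 and 11.95 on the naive arrays (-0.84 ± 0.13, adjusted p = 0.000693). Scn2b, an auxiliary subunit, measured 8.56, 8.47 and 8.37 on the crush arrays and 9.31, 9.29 and 9.46 on the naive arrays (-0.88 ± 0.12). Neither overlapped between groups, as for 2078 of the 2088 genes called and 38.4% of all genes tested. Scn11a, encoding Nav1.9 of nociceptors, fell by 0.65, Scn1a by 0.61, Scn8a by 0.60 and the subunit gene Scn4b by 0.58. Scn3b fell by 0.50 but not without crush 1, crush 3, naive 2 or naive 3 (-0.54 to -0.44), nor on a second probe (-0.35). Under median scaling 4 of the 8 fell.

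Potassium and HCN channel genes gave 25 decreases and 1 increase among 41 tested, with 37 of 41 changes negative and a median of -0.62. Kcnmb1, a beta subunit of large-conductance calcium-activated channels, measured 8.25, 8.37 and 8.13 on the crush arrays and 9.76, 9.82 and 10.29 on the naive arrays. Its fall of 3.26-fold was the largest among all genes (-1.71 ± 0.20, adjusted p = 6.76e-05). The exception was Kcnmb4, another beta subunit of the same channels, which measured 10.81, 10.74 and 10.42 on the crush arrays and 9.69, 9.90 and 9.79 on the naive arrays and rose by 0.86 ± 0.15 (adjusted p = 0.00134). These 2 subunits of one channel thus moved in opposite directions. Kcnk18, the two-pore channel TRESK, fell by 1.25, and Kcnt1, a sodium-activated channel, by 1.18. The small-conductance channel gene Kcnn1 fell by 1.03, the silent subunit genes Kcng4 and Kcns1 by 1.00 and 0.70, and Kcnd1, an A-type channel, by 0.79. Its partner Kcnip3 fell by 0.92 and Kcnip1 by 0.67.

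Other potassium channel genes that fell were the inward rectifiers Kcnj12 (-0.84) and Kcnj3 (-0.55), the leak channel Kcnk1 (-0.91), the fast delayed rectifiers Kcnc1 (-0.62) and Kcnc4 (-0.51), and the beta subunits Kcnab1 (-0.67) and Kcnab2 (-0.64). The modifier subunits Kcnf1 (-0.72) and Kcnv1 (-0.66) and the ERG and EAG channels Kcnh2 (-0.69) and Kcnh5 (-0.64) fell too. A second probe of Kcnc1 (-0.21) was not called, and of 2 further probes of Kcnh2 one was called (-0.56) and the other was not (-0.50). For 5 further falls the call was lost in several fits without 1 array, while the direction was kept. Kcnip2 (-1.24) was not called without crush 1, crush 3, naive 1, naive 2 or naive 3 (-1.31 to -1.16). Kcna2, the juxtaparanodal channel of myelinated axons (-0.73), was not called without crush 1, crush 2, naive 1 or naive 2 (-0.91 to -0.59). Hcn2, a hyperpolarisation-activated channel (-0.88), was not called without crush 3, naive 2 or naive 3 (-0.96 to -0.74), Kcnip4 (-0.51) without crush 1, crush 2, naive 1 or naive 2 (-0.64 to -0.39), or Kcnh6 (-0.45, with 0.05 on a second probe) without crush 1, crush 2, crush 3 or naive 1 (-0.53 to -0.33). The list held 21 to 23 falls over the fits without 1 array and 19 under median scaling.

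**Figure D3:**
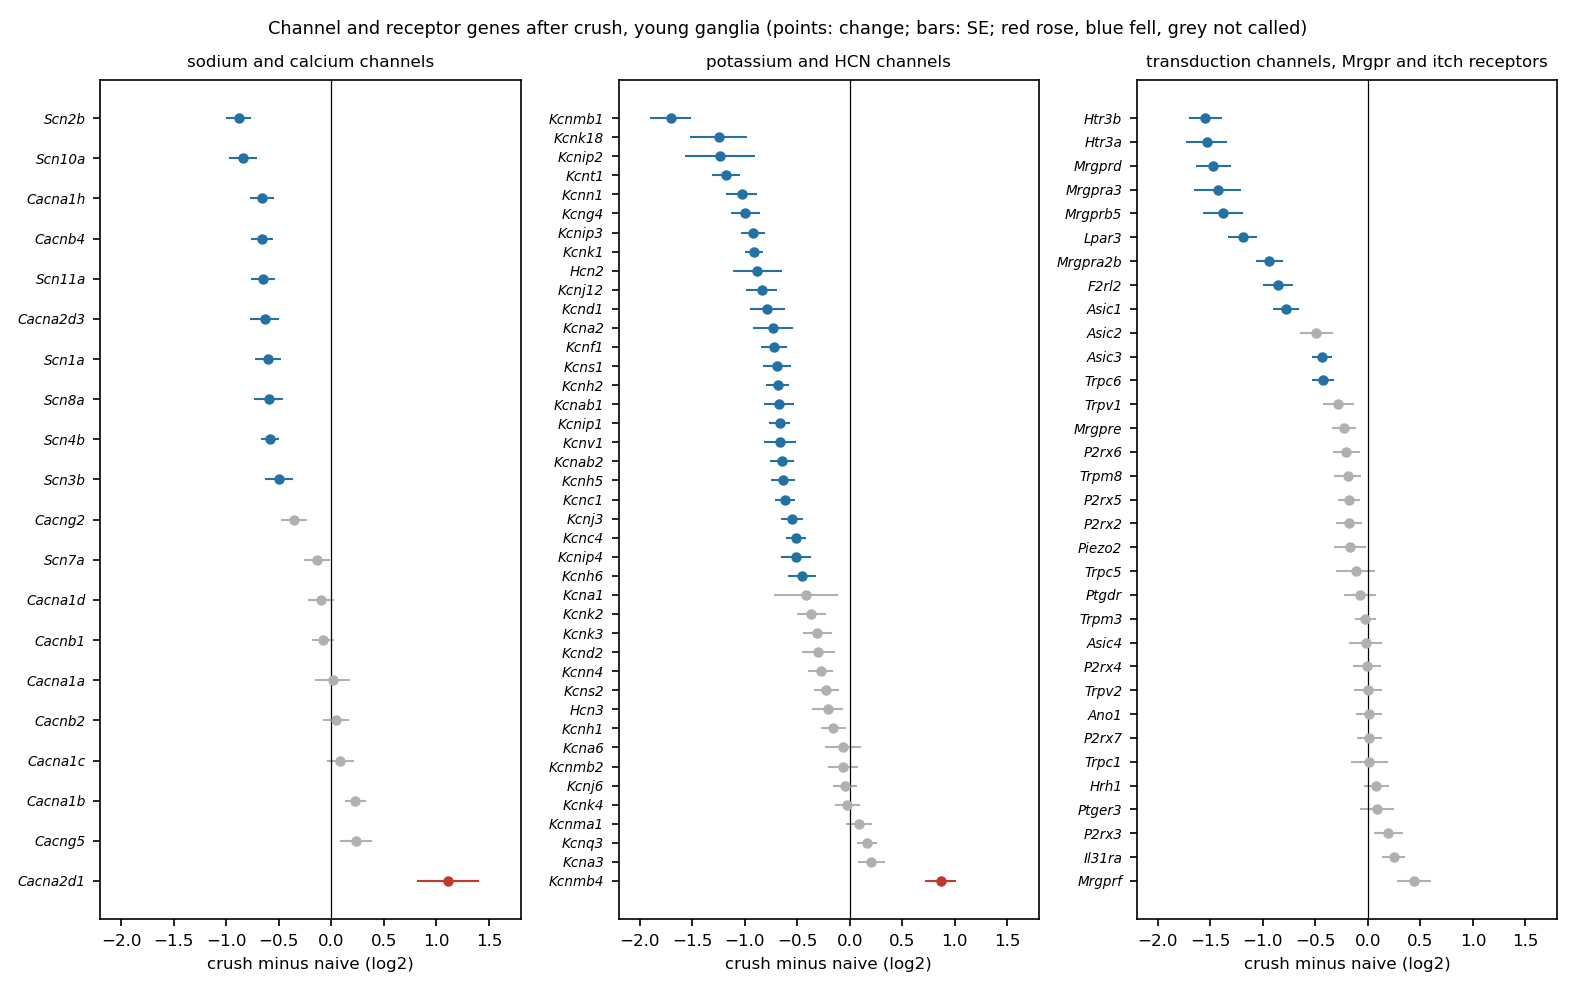
Change after crush (crush minus naive, log2, points with standard error, horizontal axis) of each tested sodium, calcium, potassium, HCN and transduction channel gene and itch receptor gene in 2-month-old ganglia, sorted within panels, with genes that rose, fell or were not called in different colours. Cacna2d1 and Kcnmb4 are the only genes drawn as risen, and Kcnmb1 and Htr3b lie furthest on the side of decreases.

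Calcium channel genes were mixed, with 1 rise and 3 falls among 12 tested. Cacna2d1, the alpha2delta subunit bound by gabapentin, measured 13.21, 13.13 and 12.90 on the crush arrays and 11.66, 11.99 and 12.26 on the naive arrays. It rose by 1.11 ± 0.30 (adjusted p = 0.0208), but not without crush 1, crush 2, naive 1 or naive 2 (0.95 to 1.25), which leaves 0 rises in the list in each of those 4 fits. Cacna1h, a T-type channel, fell by 0.66, Cacna2d3 by 0.64 and the beta subunit gene Cacnb4 by 0.66 (-0.28 on a second probe, not called). Under median scaling 1 calcium channel gene fell. Of 15 receptors for GABA, glycine and glutamate, Gabrg1 rose (0.68), Grik1, a kainate receptor of nociceptors, fell (-0.86), and Gria2 fell (-0.53) but was not called in any fit without 1 array (-0.61 to -0.40), while a second probe of it was called at -0.72.

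Of 21 channels that detect stimuli, 5 fell and 0 rose (6 lower and 0 higher at an unadjusted p under 0.05), or 2 fell under median scaling, where the calls of Asic1, Asic3 and Trpc6 were lost. Htr3a and Htr3b, the 2 subunits of the serotonin-gated channel, fell together. Htr3a measured 9.52, 9.78 and 9.68 on the crush arrays and 11.12, 11.25 and 11.22 on the naive arrays (-1.54 ± 0.20, adjusted p = 0.000147). Htr3b measured 8.97, 9.52 and 9.18 on the crush arrays and 10.70, 10.77 and 10.85 on the naive arrays (-1.55 ± 0.16). Their groups were more than 1 log2 unit apart in mean. The acid-sensing channels Asic1 and Asic3 fell by 0.78 and 0.44 (2 further Asic3 probes, at -0.40 and -0.51, were not called), and Trpc6 by 0.43 but not without crush 3, naive 2 or naive 3 (-0.48 to -0.38). The capsaicin receptor Trpv1 (-0.28 ± 0.15), the cold receptor Trpm8 (-0.19 ± 0.13), the touch channel Piezo2 (-0.17 ± 0.15) and the ATP-gated channel P2rx3 (0.20 ± 0.14) did not pass. The probe of Trpa1 lay below the intensity filter.

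Of 12 itch receptor genes 6 fell and 0 rose (6 lower and 2 higher at an unadjusted p under 0.05), with a median of -0.54. Mrgprd, of non-peptidergic skin nociceptors, measured 8.37, 8.90 and 9.01 on the crush arrays and 10.16, 10.24 and 10.30 on the naive arrays (-1.47 ± 0.17, adjusted p = 5.45e-05). Mrgpra3, the chloroquine receptor, measured 7.81, 7.76 and 7.39 on the crush arrays and 8.77, 9.01 and 9.47 on the naive arrays (-1.43 ± 0.22). Both genes are among the 20 largest decreases, which were chosen from genes with groups that do not overlap. Mrgprb5 (-1.38), the lysophosphatidic acid receptor Lpar3 (-1.19), Mrgpra2b (-0.94, with -0.05 on a second probe) and the thrombin receptor subunit F2rl2 (-0.86) also fell. Mrgpr genes form a family of close copies, so a probe may read more than 1 of them.

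Decreases were found among markers of large and of small neurons. Of 11 markers of large-diameter neurons 8 fell and all 11 changes were negative, with a median of -0.62. Pvalb, a calcium buffer of proprioceptors, measured 12.56, 12.45 and 12.62 on the crush arrays and 13.08, 13.26 and 13.21 on the naive arrays (-0.64 ± 0.10, adjusted p = 0.000838). Whrn, the scaffold protein whirlin, fell by 1.13. Of 18 markers of small-diameter neurons 9 fell and 1 rose (Gfra3), with a median of -0.44. Under median scaling 6 of the large and 8 of the small neuron markers fell. Genes such as Etv1, Scn1a and Kcnc1 of large neurons, and Mrgprd, Scn10a and Tac1 of small neurons, were also counted in lists above. The counts by neuron size therefore overlap with those lists. Th, tyrosine hydroxylase of touch-sensing C-fibres, measured 9.04, 9.41 and 9.54 on the crush arrays and 10.75, 10.75 and 10.65 on the naive arrays (-1.39 ± 0.22, adjusted p = 0.000719), and Slc17a8, the vesicular glutamate transporter of the same fibres, fell by 1.08. Plxnc1 changed by -0.11 and was not called. A test of one size against the other was not run.

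Genes of transmitter release fell in 9 of 20 cases (45.0%, against 9.43% of all genes) and rose in 1 (5.0%, against 8.68%), with a median of -0.45. Sv2b (-0.72) and Sv2a (-0.62), glycoproteins of synaptic vesicles, fell, and so did Rab3a (-0.58), which primes vesicles, and Vamp1 (-0.82, also -0.82 on a second probe that was called, with 2 others at -0.15 and -0.13 not called). Syt1, the calcium sensor of release, fell by 0.44, while Syt4, another synaptotagmin, rose by 0.47. Slc17a6, the main vesicular glutamate transporter of these neurons, changed by 0.08 and was not called. The list held 6 falls under median scaling.

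Further genes with large decreases lie outside the channel lists. Rgs8, which shortens G protein signals, measured 8.30, 8.71 and 8.61 on the crush arrays and 10.20, 10.03 and 10.07 on the naive arrays (-1.56 ± 0.18). Vstm2b fell by 1.47, the actin-severing protein gene Scin by 1.44, the scaffold gene Lin7b by 1.41 and Lgi3, a secreted leucine-rich repeat protein gene, by 1.40. Rph3a, the Rab3 effector rabphilin, fell by 1.39, the cell junction scaffold gene Patj by 1.39 and Hapln4, a link protein of the extracellular matrix, by 1.36. Igsf21, an adhesion protein, fell by 1.35, Rem2, a GTPase that restrains calcium channels, by 1.33, Amigo3 by 1.31, the receptor gene Gpr35 by 1.30 and Ly6h, which binds nicotinic receptors, by 1.29. Separate ranges on crush and naive arrays were a condition for choosing these largest decreases, so they are not a result.

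Other large increases came from genes of varied function. Slc6a4, the serotonin transporter, measured 10.57, 10.36 and 10.56 on the crush arrays and 6.51, 6.37 and 6.26 on the naive arrays (4.12 ± 0.16, adjusted p = 3.98e-09). Wfdc3, with a whey acidic protein domain, rose by 4.12, Speer3 by 4.51 and Speer1 by 4.08, the last 2 from a family of near-identical genes whose probes may be shared. Lipn, a lipase, rose by 3.74, the kinesin gene Kif22 by 3.40, Cstdc4, a cystatin domain gene, by 3.12 and Fst, encoding the activin antagonist follistatin, by 3.06. Sez6l rose by 3.49, but a second probe gave 0.20 and was not called. Car3, a carbonic anhydrase abundant in muscle and fat, measured 10.60, 10.35 and 10.58 on the crush arrays and 6.80, 6.46 and 6.81 on the naive arrays (3.82 ± 0.18). It was about equally high on all 3 crush arrays, unlike the muscle genes Myl1 and Acta1.

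Stress genes were among the increases. Gadd45a, a growth arrest and DNA damage gene, measured 13.34, 13.44 and 13.55 on the crush arrays and 10.74, 10.61 and 10.49 on the naive arrays (2.83 ± 0.10, adjusted p = 2.69e-09). Cdkn1a, the cell cycle inhibitor p21, rose by 1.74 ± 0.11, Gadd45g by 1.60, and the caspase genes Casp6 and Casp8 by 1.20 and 0.62. Bad, a promoter of apoptosis, rose by 0.44. Of 18 p53 and cell death genes tested 7 rose (38.9%, against 8.68% of all genes) and 2 fell (11.1%, near the 9.43% of all genes). The 2 falls became 1 without crush 1, crush 2, naive 1 or naive 2 and 0 without naive 3. The median of that list was 0.23.

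Amino acid and polyamine genes rose in part. Chac1, which degrades glutathione and is a target of the amino acid response, measured 12.03, 12.03 and 12.01 on the crush arrays and 10.01, 9.82 and 9.89 on the naive arrays (2.12 ± 0.13, adjusted p = 2.97e-07). The folate enzyme gene Mthfd2 rose by 0.93, the serine synthesis gene Psat1 by 0.83, the amino acid transporter genes Slc7a3 and Slc7a5 by 0.81 and 0.70, and Sesn2 by 0.77. A second probe of Slc7a3 gave -0.07 and was not called. In all 9 of 21 such genes rose and 0 fell (10 higher and 0 lower at an unadjusted p under 0.05). Ddit3 (0.11) and the chaperone gene Hspa5 (-0.09), which mark the unfolded protein response, were not called. The asparagine synthetase gene Asns gave 0.27, not called, 0.48 on another probe that was (adjusted p = 0.0104) and 0.26 on a further one that was not. The arginase genes Arg1 and Arg2 and Odc1, the first enzyme of polyamine synthesis, rose by 1.06, 1.01 and 1.07, 3 of the 8 genes tested for that pathway, with 0 falling (4 higher and 1 lower at an unadjusted p under 0.05).

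Macrophage markers rose together in the injured ganglia. Of 22 tested, 18 rose (81.8%, against 8.68% of all genes) and 0 fell (18 higher and 0 lower at an unadjusted p under 0.05), with a median of 1.28. Mrc1, the mannose receptor of resident macrophages, measured 10.94, 10.71 and 10.94 on the crush arrays and 8.88, 8.55 and 8.87 on the naive arrays (2.10 ± 0.14, adjusted p = 9.42e-07). Cx3cr1, the fractalkine receptor, measured 9.70, 9.83 and 9.81 on the crush arrays and 8.04, 8.22 and 8.25 on the naive arrays (1.61 ± 0.14). The groups did not overlap for these genes, as for 2078 of the 2088 genes called and 38.4% of all genes tested. Aif1, encoding Iba1, rose by 1.48 and the Fc receptor gene Fcgr3 by 1.53. Lyz2, lysozyme of macrophages and neutrophils, rose by 1.87, with 1.40 on a second probe that was called and 0.30 on another that was not. The scavenger receptor Cd163 rose by 1.10 but not without crush 1 or naive 2 (0.91 to 1.28). Without crush 3, 18 macrophage markers rose, with a median of 1.39.

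Complement and chemokine genes rose beside them. C1qa, C1qb and C1qc, the chains of C1q made by macrophages and counted in both lists, rose by 1.52 ± 0.10, 1.78 ± 0.11 and 2.08 ± 0.15. C4b rose by 0.66 ± 0.12, so that 4 of 7 complement genes rose and 0 fell (4 higher and 0 lower at an unadjusted p under 0.05). Ccl8, a chemokine for monocytes, measured 9.22, 8.81 and 9.25 on the crush arrays and 7.09, 6.78 and 6.78 on the naive arrays (2.21 ± 0.15, adjusted p = 6.35e-07). Ccl12 rose by 1.93, Ccl9 by 1.59 and Ccl7 by 1.17. Ccl2, another monocyte chemokine gene, rose by 0.43, but not without crush 1, crush 2, naive 1, naive 2 or naive 3 (0.38 to 0.51). In that list 7 of 17 rose and 0 fell (8 higher and 0 lower at an unadjusted p under 0.05). Antigen presentation genes of class II gave 2 rises among 7, H2-DMb1 (0.56) and H2-DMa (0.41), and all 7 changes were positive. At an unadjusted p under 0.05, 5 were higher and 0 lower. The 2 rises became 0 without crush 1, crush 3 or naive 2 and 1 without naive 1. They became 3 without crush 2 or naive 3. With a replicate block there were 6 over the young arrays and 5 over all arrays. H2-DMb1 ranged over 0.44 to 0.68 and H2-DMa over 0.32 to 0.52 without single arrays. Cd74, the invariant chain, changed by 0.58 and was not called. It was called with a replicate block, array weights or the young arrays alone, and without crush 2 or naive 3.

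Neutrophil genes rose in 6 of 11 cases (54.5%, against 8.68% of all genes), and crush 3 was the highest array. S100a8, a calprotectin subunit, measured 12.45, 12.59 and 13.18 on the crush arrays and 10.76, 11.42 and 11.79 on the naive arrays (1.42 ± 0.33, adjusted p = 0.00922). S100a9 rose by 1.34, the resistin-like gene Retnlg by 1.44 and the antimicrobial peptide gene Camp by 1.39. Ngp (1.13) was not called without crush 3, naive 1 or naive 2 (0.70 to 1.36), nor Lcn2 (0.98) without crush 2, crush 3, naive 1 or naive 2 (0.67 to 1.18). The list's mean shift from naive was 0.65, 0.63 and 1.38 on crush 1 to 3, against -0.20, 0.01 and 0.20 on naive 1 to 3. The part of blood or marrow cells in these values was not tested. Interferon response genes showed 0 rises and 0 falls among 17 tested by limma (3 at an unadjusted p under 0.05). T and NK cell markers gave 0 calls of 4 (0 unadjusted), B and plasma cell markers 0 of 4 (1 unadjusted), and of 5 mast cell markers Cpa3 rose (0.58, with -0.07 and 0.16 on 2 further probes that were not called). Without crush 2 there were 2 rises among the mast cell markers.

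**Figure D4:**
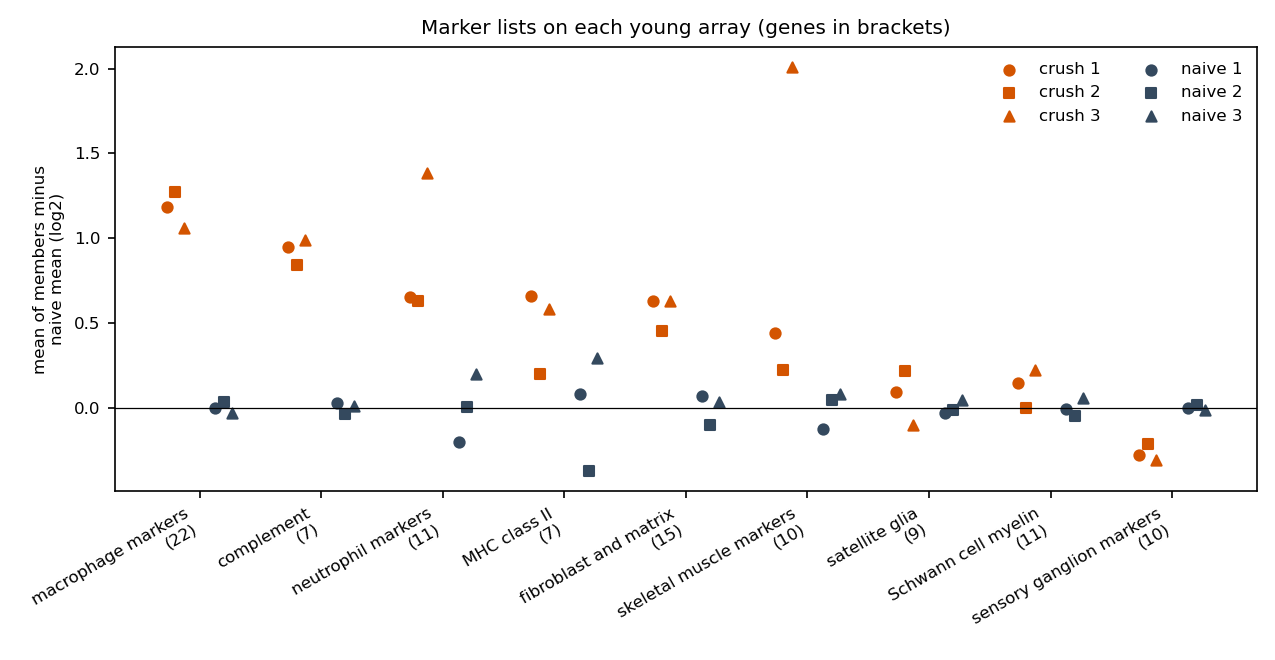
Mean shift of the marker genes of each cell type from the naive mean (log2) on each of the 3 crush arrays (left) and 3 naive arrays (right). Macrophage markers are high on all 3 crush arrays, while skeletal muscle markers are high on crush 3, at 2.01 against 0.44 and 0.22 on crush 1 and 2. The muscle markers include Car3, which is high on all 3 crush arrays.

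Few glial markers passed the test. Of 9 satellite glia markers Cdh19 rose (0.66) and Aldoc fell (-0.51), with a median of 0.02, while Glul (0.39) was not called, except without crush 3 (0.61) and with array weights. Fabp7 changed by 0.00 and Gja1 by -0.04. Gfap, also a satellite glia marker, lay below the intensity filter and was not tested. Among 11 myelin genes of Schwann cells Drp2 rose (0.43), which was not the case without crush 1, crush 3, naive 1, naive 2 or naive 3 (0.30 to 0.59), whereas 2 myelin genes rose without crush 2. Pmp22 changed by 0.15. Probes of the myelin basic protein gene Mbp disagreed, with 0.03 on the one that stood for it and -1.05 on another that was called (adjusted p = 0.000139), and 0.11 on a further one that was not. Of 9 genes of repair and immature Schwann cells 0 rose and 1 fell, Shh (-0.46, with a second probe at 0.13 not called), with the same counts at an unadjusted p under 0.05. Gdnf and Artn, listed with them, lay below the intensity filter and were not tested. The astrocyte markers Aldh1l1 (0.70, with 1.04 and 0.82 on 2 further probes that were called and 0.03 on another that was not) and Aqp4 (-0.42) went in opposite directions, and Aqp4 was not called without crush 1 or naive 3 (-0.51 to -0.35).

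Cell division genes rose in 4 of 15 cases and fell in 0 (6 higher and 0 lower at an unadjusted p under 0.05). Prc1, a spindle and microtubule cross-linking protein, measured 11.14, 10.94 and 10.99 on the crush arrays and 8.66, 8.65 and 8.60 on the naive arrays (2.38 ± 0.09, adjusted p = 3.98e-09). Mcm6, of the replication helicase, rose by 0.63 (0.57 on a second probe, called, and 0.19 on another, not called). Cdk1 (0.49) was not called without crush 2, naive 1 or naive 2 (0.40 to 0.60), nor Birc5 (0.34) without crush 1, crush 2, naive 1, naive 2 or naive 3 (0.30 to 0.39), so 2 genes rose in the fits without crush 2, naive 1 or naive 2. Of the other Birc5 probes 2 were called, at 0.63 and 0.56. The list's median was 0.19.

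Among 15 fibroblast and matrix genes all changes were positive, 5 rose and 0 fell (9 higher and 0 lower at an unadjusted p under 0.05), with a median of 0.48. Timp1, an inhibitor of matrix proteases, measured 10.35, 10.34 and 10.04 on the crush arrays and 8.62, 8.03 and 7.95 on the naive arrays (2.04 ± 0.17, adjusted p = 4.53e-06). Lum, encoding lumican, rose by 0.93 and Mmp2, a gelatinase, by 0.68. Col5a1 (0.48) was not called without crush 1 or naive 2 (0.41 to 0.52), nor Pdgfra (0.49) without crush 2 or naive 2 (0.36 to 0.55), and 3 genes of the list rose without naive 2. Col1a1 changed by 0.91 ± 0.37 and was not called. Perineurial markers gave 2 rises among 8, the glucose transporter Slc2a1 (1.00) and the prostaglandin synthase Ptgds (1.40), which was not called without crush 1, crush 3 or naive 2 (0.92 to 1.67), leaving 1.

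Vessel and blood markers did not pass: endothelial markers gave 0 calls of 9 (1 at an unadjusted p under 0.05, and 1 call without crush 2), pericyte and smooth muscle markers 0 of 8 (3 unadjusted, and 3 calls without crush 2) and red blood cell markers 0 of 4 (0 unadjusted). The smallest p of each list belonged to Vwf (0.37), Actg2 (0.42) and Slc4a1 (0.48). Bone and cartilage markers gave 0 of 5 (0 unadjusted). Cholesterol synthesis gave 0 of 12 (4 unadjusted), and oxidative phosphorylation 0 of 16 (3 unadjusted, and 1 call without crush 3). Of 10 skeletal muscle markers Car3 rose and Pvalb, also a marker of large neurons, fell, while Acta1, skeletal actin, measured 8.38, 7.08 and 10.48 on the crush arrays and 6.91, 7.29 and 7.50 on the naive arrays and was not called. Without crush 2 there were 3 rises in that list. Adipoq, of fat cells, rose by 0.71, but not without crush 1, crush 3 or naive 2 (0.55 to 0.86). What part muscle or fat adhering to the ganglia had in these values was not tested.

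**Figure D5:**
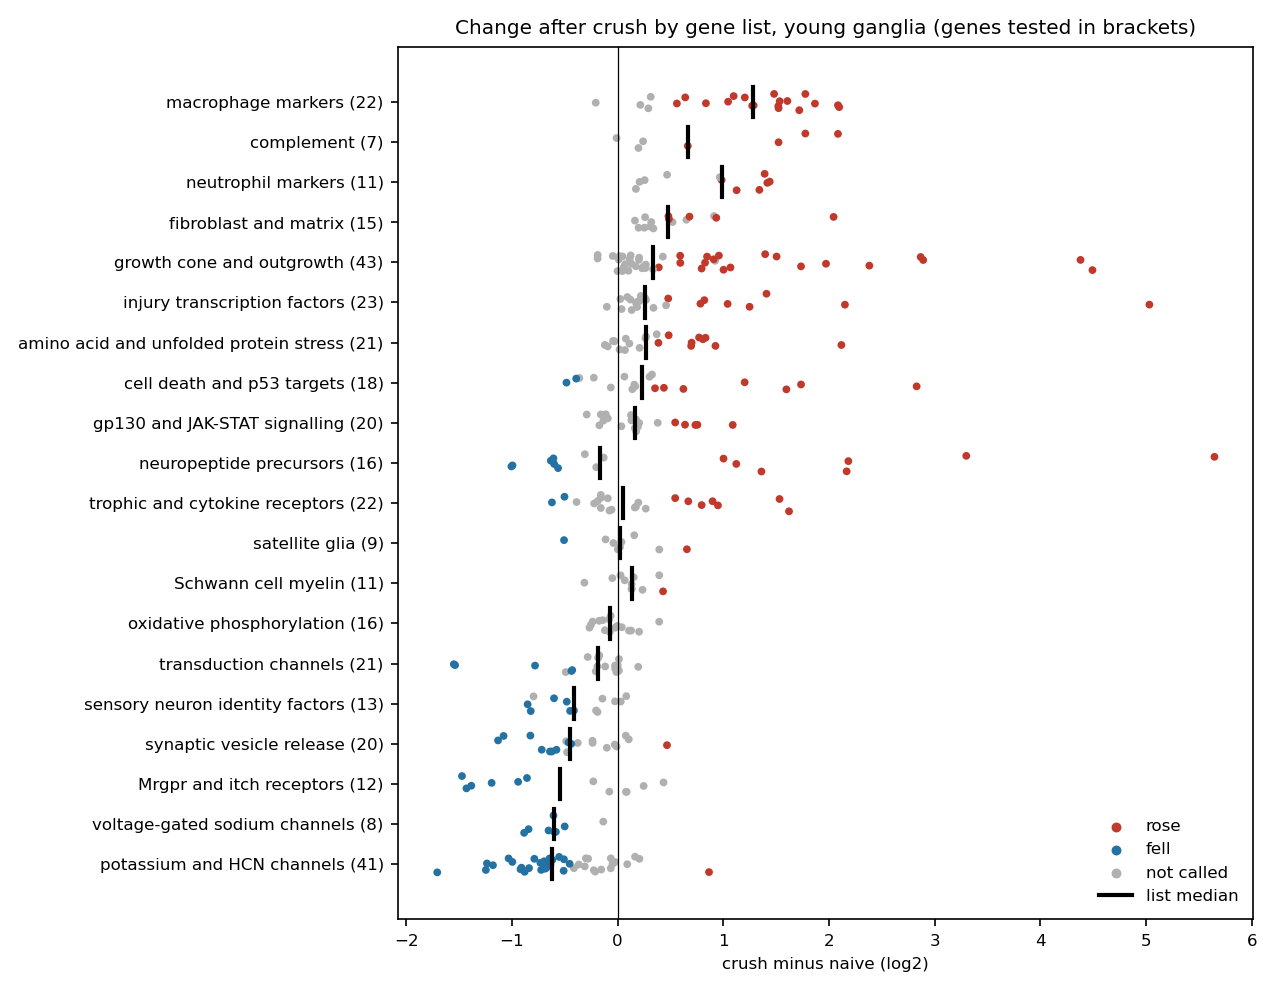
Change after crush (crush minus naive, log2, horizontal axis) of each tested gene of 20 gene lists in 2-month-old ganglia, coloured by whether it rose, fell or was not called, with the list's median as a vertical bar. Of the lists drawn, that of macrophage markers has the highest median (1.28) and that of potassium and HCN channels the lowest (-0.62).

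The same injury in 24-month-old mice gave a second set of arrays for these genes, fitted in the same model. Both sets shared the normalization, filter, choice of probes and estimate of spread, so their calls are not independent. All 222 genes that rose at least 2-fold in young ganglia had a positive change in old ganglia, and 220 of them rose there, where 8.1% of all genes rose. Over all genes tested, 76.6% (8833 of 11529) had changes of one sign in young and old ganglia. All 79 that fell at least 2-fold had a negative change in old ganglia, and 78 fell there, where 8.47% of all genes fell. The median change of the 222 was 1.39 in young and 1.35 in old ganglia, and that of the 79 was -1.16 in young and -1.09 in old ganglia. Npy changed by 5.65 ± 0.18 in young and 4.44 ± 0.20 in old ganglia, a difference of 1.20 ± 0.27, and Atf3 by 5.03 ± 0.12 in young and 4.32 ± 0.13 in old ganglia, a difference of 0.71 ± 0.18. Neither difference passed, the smallest adjusted p among all 11529 genes being 0.999. By limma 0 genes (0%) differed in response between young and old, and 346 did at an unadjusted p under 0.05, with 2 naive arrays in the old group. A miss of the threshold does not show that the responses were alike.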

How the data were processed

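The values are non-normalized probe intensities on a linear scale, deposited by the authors for 25697 probes, and no detection p-values came with them. Scanner software and any earlier background step: not given in the sources used here. A table of processed intensities, deposited by the authors, served as an alternative. Per the submitters' processing notes the tool was RMA, version unstated. Its scale is linear, uncentred and of 1 channel, with a median of 211 on each array, and it correlated with the main log2 values at 0.995. 1 column of the unprocessed table matched no labelled sample and was not used.

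With limma 3.58.1 (R 4.3.3), intensities were corrected with normexp (offset 50), quantile normalized and put on the log2 scale. A probe was kept where at least 2 arrays had it above their 40th percentile, which held for 17086. The platform annotation names 1 gene for 23978 probes, several for 0 and none for 1719. Symbols were updated with a RefSeq table of GRCm38.p6, for 23962 probes through the Entrez identifier and for 9 through an accession, and 7 kept the annotation's symbol. Each of the 11529 genes was represented by its probe of highest mean over the 11 arrays. Of 126 other probes of the named genes, 52 were called in the same direction as the main probe, 26 that passed the filter were not called where the main probe was, 6 were called where it was not, and 0 were called in the opposite direction.

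One limma model (lmFit, eBayes, two-sided) with 4 group means over the 11 arrays gave the contrast of young pre-conditioned minus young naive, and the difference between the young and the old response. It had 7 residual and 5.31 prior degrees of freedom. P-values were adjusted by Benjamini-Hochberg over all genes, with a threshold of 0.05. The number of arrays limits the precision. Correlations between the young arrays ran from 0.974 to 0.996, and none were identical.

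Named genes are the 20 greatest increases and decreases with groups that do not overlap, genes set for reporting in the lists, up to 6 called members of each list with the smallest p (or the member with the smallest p where none passed), and all called members of the channel, neuropeptide and receptor lists, 242 in all. The members and the 46 lists were chosen with earlier results of these data known, so lists are described by counts and medians with no test. Of 788 listed genes 574 were tested, 109 lay below the filter and 105 were not analysed here. The fit was checked on simulated data. The alternatives covered background correction, scaling, filter, probe choice, variance model, a replicate block and each young array left out.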

Additional observations from a re-analysis of the deposited data

How the results depend on the processing

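The counts of genes called (2088), rising (1001), falling (1087) and changed at least 2-fold (301) stayed within 1.5 times, apart from the following. Changes of at least 2-fold numbered 200 without background correction, 200 with the processed values of the authors and 185 with the stricter filter. Median scaling left 1247 genes called and 441 that fell. Testing against a minimum 2-fold change left 71 genes called, 71 that rose, 0 that fell and 71 of at least 2-fold. Leaving out 1 young array at a time gave 1418 to 1686 genes called, 712 to 825 that rose, 706 to 861 that fell (706 without naive 2) and 278 to 314 changed at least 2-fold. No called value of a named gene reversed, but increases outnumbered decreases under cyclic loess (1113 against 950) and median scaling (806 against 441). By limma 0 genes differed in response between young and old in each alternative that gave this test.

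Of the 204 called genes among the 242 named, 204 kept their direction and 157 their call in every alternative other than the test against a minimum fold. Median scaling lost 33 of these calls, 27 of them falls, for which the cause was not tested. Cyclic loess lost those of Gria2, Kcnh6 and Kcnip2, and omitting background correction, like the processed values of the authors, those of Ccl2, Oprd1 and Oprk1. Medians of 13 of the 46 lists changed sign in some alternative, those of neuropeptide precursors and receptors, trophic receptors, calcium channels and skeletal muscle markers among them. Deviations of young crush and naive arrays with the same replicate number were weakly correlated (-0.07, 0.12 and -0.08). Those of arrays with different numbers correlated at -0.10 to 0.14. With so few arrays these values cannot exclude pairing by replicate number. In some lists, such as that of class II antigen presentation, crush 2 and naive 2 were each the lowest of their group, and in others they were not. A replicate block gave 2377 calls over the young arrays and 1968 over all arrays. Slide or scan as a block was not run, since the files give none. Signal over background limits the lowest naive values, whose distance from background is unknown.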
